A study of Homo sapiens with 12 samples.

Results

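Bulk mRNA of 10 nuclear genes that maintain, transcribe or regulate the mitochondrial genome was followed in 12 libraries of human fibroblasts. The genes were chosen by name, with earlier results of these data known. TFAM, TFB1M, TFB2M and POLRMT belong to the mitochondrial transcription machinery, and POLG and TWNK to the replication fork. NRF1, PPARGC1A and PPARGC1B belong to the nuclear control of biogenesis, and LRPPRC protects mitochondrial mRNAs. The count files listed all 10, among 57773 genes, and all 10 were among the 21518 genes that had enough counts to be tested. The cells were WI-38, an established line of human diploid lung fibroblasts kept at low population doubling levels, and were not sorted. Each of the 4 groups had 3 libraries. Proliferating cells were transfected with a non-targeting pool of siRNAs (siCtrl) and kept in the vehicle DMSO for 8 days. Senescent cells were transfected with siCtrl, with a pool against NTRK2 mRNA, which encodes the receptor TrkB (siNTRK2), or with a pool against BDNF mRNA, which encodes its ligand (siBDNF), and were kept for 8 days in 50 µM etoposide, which damages DNA by blocking topoisomerase. Every group thus carried an siRNA pool, at 25 nM, and 1 pool stood for each target. The proliferating group had no silenced counterpart.

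Mitochondria carry their own small circular genome, which encodes a few subunits of the respiratory chain together with the rRNAs and tRNAs that translate them, and everything else that acts on it is encoded in the nucleus. TFAM coats and bends this DNA and opens its promoters, TFB2M melts the promoter for the single-subunit RNA polymerase POLRMT, and the related TFB1M methylates the ribosomal RNA of the small mitochondrial subunit. POLG is the catalytic subunit of the mitochondrial DNA polymerase and TWNK its helicase. NRF1 is a nuclear transcription factor that binds GC-rich promoters of many of these genes, and PGC-1α and PGC-1β, encoded by PPARGC1A and PPARGC1B, are coactivators that raise its activity. LRPPRC, with its partner SLIRP, binds and stabilizes mitochondrial mRNAs.

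NRF1 is known to act on the promoters of the transcription genes, so their promoter windows were searched for its letters. The windows are from RefSeq (GRCh38.p14) and run from 250 bases before to 50 bases after the annotated start, 300 bases in all. An entry was matched by symbol for 8 of the 10 genes, with 2 entries for PPARGC1A; TWNK and NRF1 had none. The letters GCNTGCGC, searched on both strands and therefore also as GCGCANGC, are an NRF1-type motif and were found in 11.98% of 35116 promoter windows. They occurred in the windows of TFAM, TFB1M, TFB2M and POLRMT, which are printed 5′ to 3′ on the strand of the gene, with the matching letters in capitals.

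TFAM, chr10:58385160-58385459, plus strand: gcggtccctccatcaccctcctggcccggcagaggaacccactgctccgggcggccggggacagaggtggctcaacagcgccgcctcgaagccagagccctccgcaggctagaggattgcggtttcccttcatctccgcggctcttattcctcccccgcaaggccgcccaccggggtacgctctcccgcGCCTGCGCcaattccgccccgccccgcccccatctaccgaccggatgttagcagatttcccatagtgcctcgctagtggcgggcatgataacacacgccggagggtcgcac

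TFB1M, chr6:155314435-155314734, minus strand: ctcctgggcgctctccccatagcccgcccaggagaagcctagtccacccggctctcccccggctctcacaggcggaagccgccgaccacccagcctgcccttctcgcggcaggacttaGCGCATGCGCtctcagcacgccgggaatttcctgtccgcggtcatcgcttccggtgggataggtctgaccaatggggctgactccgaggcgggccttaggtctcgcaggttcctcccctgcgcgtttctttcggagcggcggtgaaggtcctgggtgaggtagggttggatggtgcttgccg

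TFB2M, chr1:246566212-246566511, minus strand: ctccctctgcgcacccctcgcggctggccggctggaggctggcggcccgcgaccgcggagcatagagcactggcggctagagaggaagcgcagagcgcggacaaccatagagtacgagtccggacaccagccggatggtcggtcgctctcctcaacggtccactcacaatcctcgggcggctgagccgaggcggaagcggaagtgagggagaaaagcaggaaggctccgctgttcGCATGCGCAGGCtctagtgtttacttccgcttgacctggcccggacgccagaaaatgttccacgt

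POLRMT, chr19:633488-633787, minus strand: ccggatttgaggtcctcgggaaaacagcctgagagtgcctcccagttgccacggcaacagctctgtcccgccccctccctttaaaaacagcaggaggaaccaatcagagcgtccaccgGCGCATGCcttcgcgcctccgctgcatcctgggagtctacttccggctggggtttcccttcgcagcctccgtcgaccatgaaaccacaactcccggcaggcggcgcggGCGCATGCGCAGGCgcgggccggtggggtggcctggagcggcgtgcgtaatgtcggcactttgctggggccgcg

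TFAM had 1 match, ending 54 bases before the start. TFB1M and TFB2M each had 2 matches on opposite strands that overlapped one another, and POLRMT had 4, of which 3 overlapped close to its start. No such letters were found in the windows of POLG, PPARGC1A, PPARGC1B and LRPPRC. The first PPARGC1A window (chr4:24472856-24473155) and the PPARGC1B window (chr5:149771690-149771989) do not lie at the starts of the gene spans given below. Those spans are on hg19 and the windows on GRCh38. For these 2 genes the absence therefore describes the windows searched and not every promoter of the gene. The ETS-type letters CGGAAG, on either strand, were in 19.5% of all windows and in those of TFB1M, TFB2M, POLRMT and LRPPRC. The GC box letters GGGCGG, on either strand, were in 45.0% of all windows and in 6 of the 8 genes, TFAM holding 5 copies. No match of one motif overlapped a match of another. A match describes the letters and not a bound factor.

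**Figure D1:**
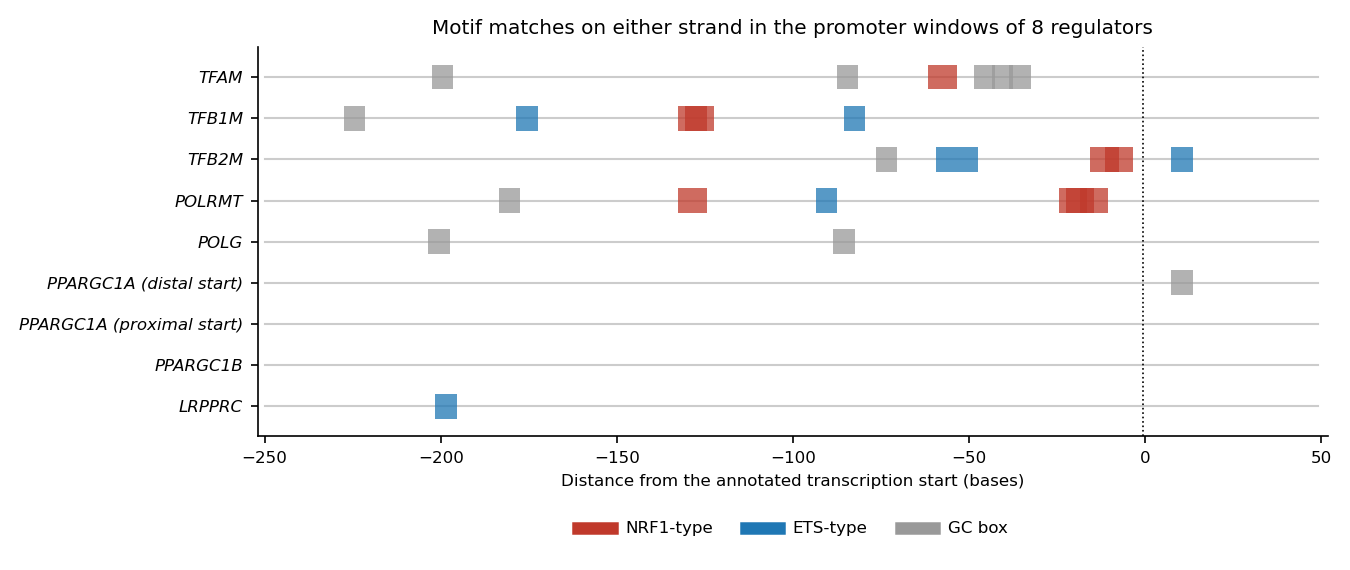
Matches to the NRF1-type, ETS-type and GC box letters in the RefSeq promoter windows of 8 of the genes; the x axis is the distance in bases from the annotated start (0), rows are genes (PPARGC1A has 2 windows), and each mark is 1 match. The NRF1-type matches lie in the rows of TFAM, TFB1M, TFB2M and POLRMT. The windows of PPARGC1A and PPARGC1B may lie at alternative starts.

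The total number of counts per library ranged from 31567912 to 72328151, so that 3 counts, the floor taken for detection, corresponded to 0.0427 to 0.0916 CPM (counts scaled to library size). CPM values here include edgeR's TMM factors, the floor covers counting error only, and the 95% intervals of fold changes come from the edgeR fit and include the spread between libraries. The summed level of 9 fibroblast markers was 31919 to 33846 CPM in proliferating, 23105 to 24901 in siCtrl-transfected senescent, 27140 to 30048 in siNTRK2 and 23927 to 24494 in siBDNF libraries. The 5 epithelial markers, in the same order of groups, summed to 0.233 to 0.342, 1.06 to 1.27, 0.706 to 0.986 and 1.58 to 1.79 CPM, and the 4 leukocyte markers to 0.157 to 0.215, 1.35 to 1.76, 0.954 to 1.19 and 1.75 to 1.95 CPM. The 3 endothelial markers found in the files summed to 75.2 to 77.9, 34.1 to 35.9, 34.4 to 40.9 and 24.3 to 25.2 CPM, nearly all of it TEK, while CDH5 stayed at or below 0.244 CPM. In the proliferating group 3 epithelial, 3 leukocyte and 1 endothelial marker were at 0. The levels of these lists thus varied with the groups. The part of these markers in the results was not tested. In bulk RNA, fewer cells with a transcript and less of it per cell cannot be told apart. NTRK2 mRNA had 0 counts in the siNTRK2 libraries, but its mean was only 0.185 CPM in siCtrl-transfected senescent cells, near the floor. Mean BDNF mRNA was 47.1 CPM with siBDNF against 162 CPM with siCtrl, and it was higher with siNTRK2, at 205 CPM (log2 fold change 0.33, adjusted p = 8.35e-06 from edgeR). The labels number the replicates and do not say whether they were separate cultures, so the p-values measure the spread between these libraries.

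Levels of different genes were compared as CPM per kilobase of the MANE Select transcript. Counts are per gene, and all annotated exons together can be longer than this transcript. They span 34689 bases against 6603 for LRPPRC, 8280 against 4462 for POLG, and 1784 in both for TFB2M. The order of the genes may depend on the length chosen and was not tested with the other. In proliferating cells LRPPRC mRNA was the most abundant, at 19.2 ± 1.28 CPM per kilobase (SD, n = 3), and was followed by TFB2M at 11.1 ± 0.661, POLG at 9.73 ± 0.169 and POLRMT at 7.24 ± 0.595. TWNK (5.06 ± 0.385), TFB1M (4.45 ± 0.393) and TFAM (4.16 ± 0.553) came next, and the ranges of these neighbours overlapped. NRF1 mRNA was at 3.11 ± 0.328 CPM per kilobase. The coactivator mRNAs were far below the rest, at 0.0967 ± 0.0128 for PPARGC1B and 0.0603 ± 0.0277 for PPARGC1A.

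The order was different in siCtrl-transfected senescent cells. LRPPRC mRNA again came first, at 17.3 ± 1.03 CPM per kilobase (SD, n = 3), but POLG mRNA (11.4 ± 0.871) came second, and POLRMT (9.53 ± 0.476) and TFB2M (9.25 ± 0.662) had ranges that overlapped. TFAM mRNA, at 2.51 ± 0.147, was now level with NRF1 mRNA, at 2.30 ± 0.180, with overlapping ranges. PPARGC1A mRNA, at 0.128 ± 0.0175, and PPARGC1B mRNA, at 0.105 ± 0.0150, overlapped as well. With siNTRK2 the order of the means was that of the siCtrl-transfected senescent cells. With siBDNF it differed from that order in TFB1M and TWNK, which overlapped in their ranges, and TFAM mRNA (3.18 ± 0.289) stood clear of NRF1 mRNA (2.25 ± 0.0712).

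**Figure D2:**
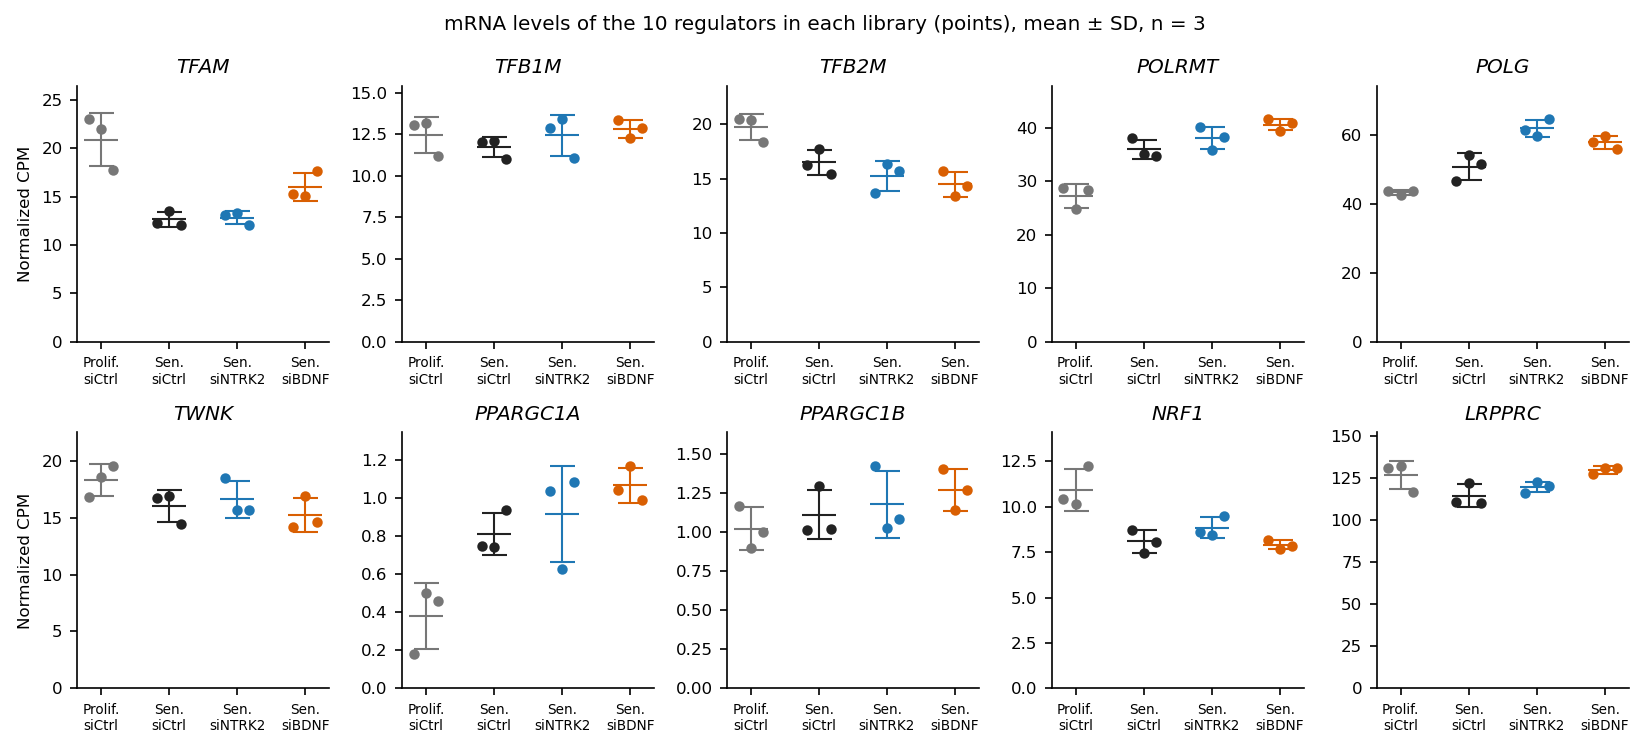
Normalized CPM of the 10 mRNAs, 1 panel per gene with its own linear axis from 0; points are the libraries of proliferating siCtrl, senescent siCtrl, senescent siNTRK2 and senescent siBDNF cells, and bars show the mean and SD of the 3 libraries of a group. TFAM lies at 17.72 to 22.97 CPM in proliferating and at 12.1 to 13.47 CPM in siCtrl-transfected senescent cells, and POLRMT moves the other way.

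The first comparison asked how the mRNAs differed between siCtrl-transfected senescent and proliferating cells. The transcription genes moved apart: TFAM and TFB2M mRNAs were lower in senescent cells while POLRMT mRNA was higher. POLG mRNA rose slightly, NRF1 mRNA fell, PPARGC1A mRNA rose from a very low level, and LRPPRC mRNA fell slightly. By edgeR's quasi-likelihood test at a Benjamini-Hochberg adjusted p under 0.05, 7 of the 10 mRNAs were called, 3 higher and 4 lower. Of all tested genes 58.1% were called in this comparison, 29.8% higher and 28.3% lower, so that most genes of any kind differed. The median log2 fold change of the 10 was -0.12, beside 0.025 over all tested genes. The groups did not overlap for 6 of the 10, beside 61.3% of all genes. PPARGC1A alone passed the additional cutoff of an absolute log2 fold change over 1, which 16.7% of all genes passed.

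TFAM (ENSG00000108064, chr10:60145105-60158980 on hg19, the build of all gene positions given here, plus strand) had the largest decrease. Its mRNA was measured at 22.97, 21.95 and 17.72 CPM in the proliferating libraries and at 12.3, 13.5 and 12.1 CPM in the senescent ones. Every senescent library was below every proliferating one, and proliferating replicate 3 was the lowest of its group. The log2 fold change was -0.73 (SE 0.089, adjusted p = 1.27e-07 from edgeR), which left 0.602 times the proliferating level. With each library left out in turn it stayed between -0.83 and -0.67 and was called in all 6 fits.

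TFB2M (ENSG00000162851, chr1:246703863-246729563, minus strand) encodes the factor that opens the promoter together with TFAM. Its mRNA was at 20.5, 20.4 and 18.4 CPM in proliferating and at 16.3, 17.8 and 15.4 CPM in senescent libraries, without overlap. It fell by 0.26 on the log2 scale (SE 0.081, adjusted p = 0.00698 from edgeR). TFB1M (ENSG00000029639, chr6:155577268-155635627, minus strand), the methyltransferase of the pair, was at 13.04, 13.16 and 11.2 CPM and at 12.06, 12.09 and 11.04 CPM. These groups overlapped and the difference of -0.094 did not pass the test (95% interval -0.27 to 0.084, adjusted p = 0.366 from edgeR). TFB1M shares 1264 exon bases with TIAM2 on the opposite strand and 591 with the lncRNA ENSG00000235381 on its own strand, and the counts of both were lower in senescent cells, by -0.57 (adjusted p = 4.54e-07) and -0.94 (adjusted p = 0.00154) in edgeR. Whether counting used the strand is not given in the sources used here, so reads in those bases cannot be assigned with certainty.

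POLRMT (ENSG00000099821, chr19:617221-633537, minus strand), the RNA polymerase itself, was at 28.8, 24.7 and 28.4 CPM in proliferating libraries. In senescent libraries it was at 38.0, 35.1 and 34.7 CPM, all above the proliferating range. POLRMT mRNA rose by 0.40 on the log2 scale (SE 0.065, adjusted p = 9.44e-06 from edgeR). All 3 called transcription genes, and TFB1M, share the NRF1-type letters in the printed windows. Of these mRNAs TFAM and TFB2M were lower, POLRMT was higher and TFB1M was not called. NRF1 binding was not measured, and its part in these levels was not tested. The ratio of POLRMT to TFAM counts, which does not depend on library scaling and was chosen after the values were seen, was 1.25, 1.13 and 1.603 in proliferating libraries and 3.09, 2.60 and 2.87 in senescent ones. The exact two-sided permutation test gave p = 0.1, the smallest that 3 against 3 libraries allow and 0.4 when adjusted over the 4 comparisons of this ratio, so the design could not pass 0.05.

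Of the replication genes, POLG (ENSG00000140521, chr15:89848429-89878092, minus strand) was at 43.74, 42.57 and 43.97 CPM in proliferating and at 46.7, 54.4 and 51.7 CPM in senescent libraries. The senescent libraries were all higher but more widely spread. The increase was 0.23 on the log2 scale (SE 0.056, adjusted p = 0.00109 from edgeR). POLG shares 458 exon bases with FANCI, a DNA repair gene on the opposite strand, whose counts fell by 0.97 on the log2 scale (adjusted p = 7.01e-10 from edgeR), so the 2 genes moved in opposite directions. TWNK (ENSG00000107815, chr10:102747124-102754160, plus strand) was at 16.8, 18.5 and 19.6 CPM and at 16.7, 16.9 and 14.4 CPM. Its groups overlapped, and at -0.19 the log2 difference did not pass the test (95% interval -0.37 to -0.0085, adjusted p = 0.0678 from edgeR). It passed in 3 of the alternative fits, with no filter on low counts (adjusted p = 0.0358) and without proliferating replicate 1 or senescent replicate 2.

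NRF1 (ENSG00000106459, chr7:129251561-129396922, plus strand) was at 10.4, 10.1 and 12.3 CPM in proliferating and at 8.73, 7.46 and 8.08 CPM in senescent libraries. The groups were separate. NRF1 mRNA fell by 0.43 on the log2 scale (SE 0.094, adjusted p = 3.94e-04 from edgeR). Its exons overlap 112 bases of RNA5SP244, an rRNA pseudogene on the same strand with a mean of 0.646 CPM in proliferating and 0.459 CPM in senescent cells.

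The mRNA for PGC-1α, PPARGC1A (ENSG00000109819, chr4:23756664-23905712, minus strand), had only 10, 35 and 17 counts in the proliferating libraries and 42, 43 and 54 in the senescent ones. In CPM these were 0.179, 0.499 and 0.460 against 0.748, 0.741 and 0.935, all above the floor and without overlap. The log2 fold change was 1.09 (SE 0.34, 95% interval 0.39 to 1.79, adjusted p = 0.00801 from edgeR). Proliferating replicate 1 was well below the other proliferating libraries, and without it the change was 0.73 and no longer called (adjusted p = 0.0677 from edgeR). PPARGC1B (ENSG00000155846, chr5:149109861-149234585, plus strand), for PGC-1β, was at 1.17, 0.897 and 1.001 CPM against 1.02, 1.29 and 1.02 CPM. The groups overlapped, with a log2 difference of 0.12 that could lie anywhere from -0.35 to 0.60 (95% interval, adjusted p = 0.671 from edgeR).

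LRPPRC (ENSG00000138095, chr2:44113363-44223365, minus strand) was at 131, 132 and 117 CPM in proliferating and at 111, 122 and 110 CPM in senescent libraries. Senescent replicate 2 lay above proliferating replicate 3, so the groups overlapped. LRPPRC mRNA fell by 0.15 on the log2 scale (SE 0.052, adjusted p = 0.0166 from edgeR). This call was lost with library totals as the only scaling (-0.11, adjusted p = 0.0893), with a minimum of 10 counts in every library (-0.11, adjusted p = 0.0564), and without proliferating replicate 2, senescent replicate 1 or senescent replicate 3. Its partner SLIRP was at 41.6, 43.6 and 47.1 CPM in proliferating and at 40.7, 42.2 and 48.2 CPM in senescent libraries, a log2 difference of -0.0093 (adjusted p = 0.921 from edgeR).

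**Figure D3:**
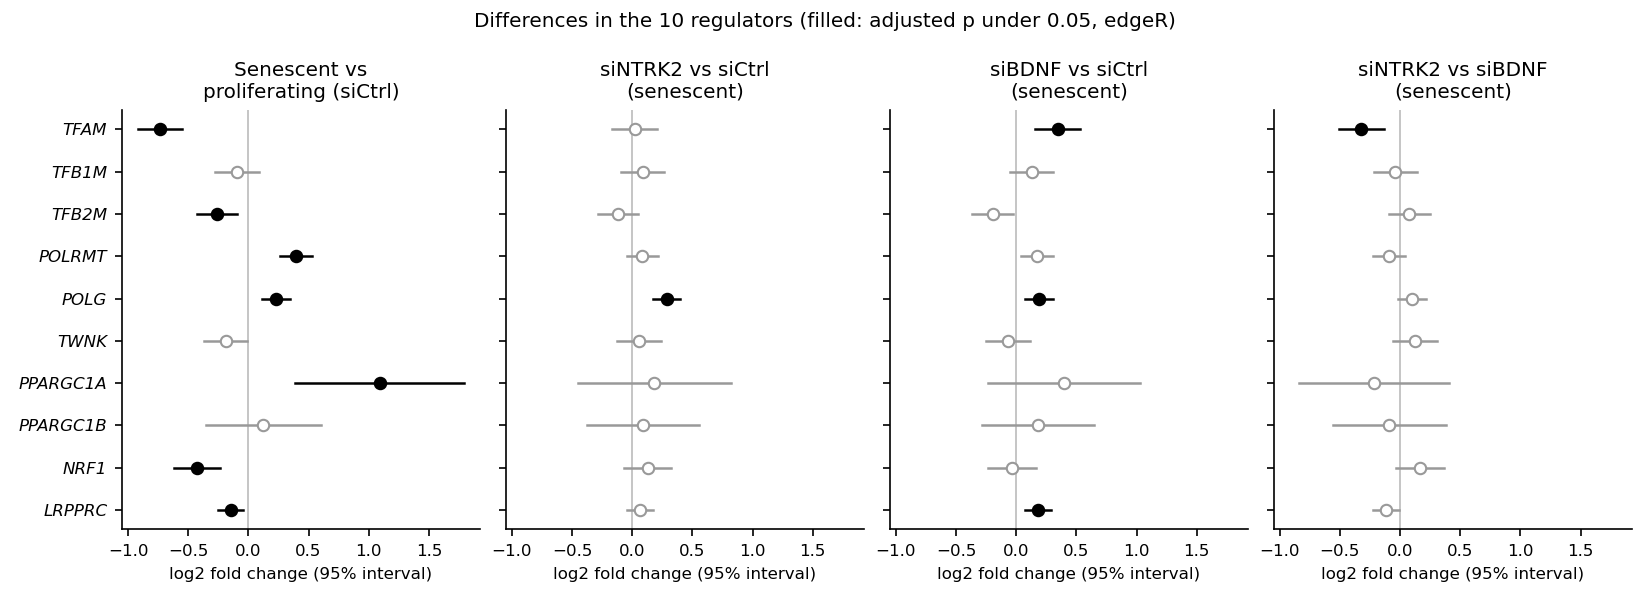
Log2 fold changes of the 10 mRNAs from the edgeR fit, with 95% intervals as bars, in the 4 comparisons; filled points have an adjusted p under 0.05. TFAM lies at -0.73 in senescent against proliferating cells, near 0 with siNTRK2 and at 0.34 with siBDNF.

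The second comparison asked what changed in senescent cells when NTRK2 was silenced. These libraries also differed from siCtrl in markers of the cell state, named after their values were seen. CDKN1A mRNA was at 2032 against 2877 CPM (-0.50, adjusted p = 2.80e-09 from edgeR) and MKI67 mRNA at 4.19 against 1.28 CPM. Other state markers are not given here, and the part of these differences in the results was not tested. One replication gene rose, POLG, and the other 9 mRNAs were not called. That is 1 of 10, beside 21.1% of all tested genes, 11.1% higher and 10.0% lower. The groups did not overlap for POLG alone, beside 32.8% of all genes, and none of the 10 passed the fold change cutoff, which 0.957% of genes passed. The median log2 fold change of the 10 was 0.085, beside -0.0024 over all tested genes. POLG mRNA was at 61.6, 59.9 and 64.7 CPM with siNTRK2, above the siCtrl-transfected senescent libraries at 46.7, 54.4 and 51.7 CPM in every case. It rose by 0.28 on the log2 scale (SE 0.056, adjusted p = 5.60e-04 from edgeR), and it was called with every library left out in turn (0.23 to 0.35). Counts of FANCI, which overlaps POLG, were also higher, by 0.26 (adjusted p = 0.0349 from edgeR).

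TFAM mRNA was at 13.09, 13.28 and 12.03 CPM with siNTRK2, overlapping the siCtrl-transfected senescent libraries at 12.31, 13.47 and 12.1 CPM. The difference was 0.020 on the log2 scale, with a 95% interval from -0.17 to 0.21 (adjusted p = 0.912 from edgeR). POLRMT mRNA, at 40.1, 35.9 and 38.2 CPM, overlapped its controls as well (0.084, interval -0.047 to 0.21, adjusted p = 0.393). TFB2M was at 13.7, 16.3 and 15.7 CPM (-0.12, interval -0.29 to 0.050) and TFB1M at 12.9, 13.4 and 11.1 CPM (0.085, interval -0.093 to 0.26). Neither separated from its controls.

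The regulators, LRPPRC and TWNK were not called either. NRF1 mRNA was at 8.60, 8.45 and 9.50 CPM with siNTRK2 (0.13, interval -0.067 to 0.33, adjusted p = 0.377 from edgeR). PPARGC1A was at 1.03, 0.625 and 1.08 CPM, a wide spread, and its interval ran from -0.45 to 0.82. PPARGC1B was at 1.42, 1.03 and 1.08 CPM (interval -0.38 to 0.56). LRPPRC mRNA, at 116, 122 and 120 CPM, was more tightly bounded (0.064, interval -0.043 to 0.17, adjusted p = 0.430). TWNK mRNA was at 18.5, 15.7 and 15.7 CPM (0.054, interval -0.13 to 0.24), while MRPL43, which shares 149 exon bases with it on the opposite strand, fell by 0.20 (adjusted p = 0.0194 from edgeR).

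The third comparison asked the same of BDNF silencing, against the same siCtrl-transfected senescent libraries. TFAM, POLG and LRPPRC mRNAs rose, by 0.18 to 0.34 on the log2 scale, and none of the 10 was called lower. These 3 of 10 stood beside 20.5% of all tested genes called, 10.3% higher and 10.2% lower. None passed the fold change cutoff, beside 0.609% of all genes. The median log2 fold change of the 10 was 0.18, beside 0.0040 over all tested genes. The groups did not overlap for 6 of the 10 (TFAM, TFB1M, POLRMT, POLG, PPARGC1A and LRPPRC), all of them higher with siBDNF, beside 37.3% of all genes in either direction.

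TFAM mRNA was at 15.29, 15.01 and 17.65 CPM with siBDNF. Each of these lay between the highest siCtrl-transfected senescent library, at 13.47 CPM, and the lowest proliferating library, at 17.72 CPM. The log2 fold change was 0.34 (SE 0.090, adjusted p = 0.00738 from edgeR), or 1.27 times the level with siCtrl. The siBDNF library highest in TFAM was replicate 3, and without it the change was 0.26 and not called (adjusted p = 0.0822). LRPPRC mRNA was at 127, 131 and 131 CPM, above all siCtrl-transfected senescent libraries, with a log2 fold change of 0.18 (SE 0.052, adjusted p = 0.0126 from edgeR). Its call was lost without senescent siCtrl replicate 1 or 3, or siBDNF replicate 2 or 3, where the change was 0.16 to 0.18 (adjusted p 0.0507 to 0.0791). SLIRP mRNA, for the partner of LRPPRC, went the other way, at 35.7, 35.9 and 36.1 CPM with siBDNF, a change of -0.28 (SE 0.072, adjusted p = 0.00598 from edgeR).

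POLG mRNA was at 58.2, 59.9 and 56.1 CPM, higher than in every siCtrl-transfected senescent library. It rose by 0.19 (SE 0.056, adjusted p = 0.0170 from edgeR). This call was lost without senescent siCtrl replicate 1, the lowest control (0.13, adjusted p = 0.161), and without siBDNF replicate 1 or 2. Counts of FANCI did not follow (0.027, adjusted p = 0.891 from edgeR). POLRMT mRNA was at 41.5, 39.4 and 40.8 CPM, also without overlap, and just missed the threshold (0.17, SE 0.063, 95% interval 0.043 to 0.31, adjusted p = 0.0537 from edgeR). It was called in 6 alternatives, among them library totals only (0.23, adjusted p = 0.0110) and the fit of the 2 groups alone (0.17, adjusted p = 0.0164).

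The remaining mRNAs were not called with siBDNF. TFB2M was at 15.7, 13.4 and 14.3 CPM, the only transcription gene with a lower estimate (-0.20, interval -0.37 to -0.026, adjusted p = 0.0987 from edgeR). TFB1M was at 13.4, 12.3 and 12.9 CPM (0.13, interval -0.051 to 0.31, adjusted p = 0.350). Although these TFB1M libraries were all above their controls, the distance was small beside the spread. PPARGC1A was at 1.04, 1.17 and 0.990 CPM (0.40, interval -0.23 to 1.03) and PPARGC1B at 1.40, 1.14 and 1.27 CPM (0.18, interval -0.29 to 0.65). NRF1, at 8.18, 7.70 and 7.83 CPM, had an estimate of -0.037 whose sign turned to 0.020 with library totals as the only scaling (interval as reported -0.24 to 0.16). TWNK was at 14.2, 16.9 and 14.6 CPM (-0.067, interval -0.25 to 0.12), and the overlapping MRPL43 fell by 0.22 (adjusted p = 0.00944 from edgeR).

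Both silencings were compared with the same siCtrl libraries, so the difference between them was tested directly. TFAM was the 1 mRNA of the 10 that differed, lower with siNTRK2 than with siBDNF by -0.32 on the log2 scale (SE 0.090, 95% interval -0.51 to -0.14, adjusted p = 0.0139 from edgeR). Over all tested genes 16.7% were called, 8.84% higher and 7.86% lower with siNTRK2, and 1.16% passed the fold change cutoff, as none of the 10 did. The groups did not overlap for 3 of the 10 (TFAM, LRPPRC and NRF1), beside 34.2% of all genes. The 3 siNTRK2 libraries, at 12.03 to 13.28 CPM, were all below the 3 siBDNF libraries, at 15.01 to 17.65 CPM. Without siNTRK2 replicate 3 the difference was -0.28 (adjusted p = 0.0643), and without siBDNF replicate 3 it was -0.24 (adjusted p = 0.136), so the call needed both libraries. POLG mRNA, called with each siRNA, was not shown to differ between them (0.096, interval -0.018 to 0.21, adjusted p = 0.263 from edgeR). LRPPRC mRNA was lower in every siNTRK2 library than in any siBDNF library, but its difference of -0.12 did not pass (interval -0.22 to -0.012, adjusted p = 0.125). For NRF1 the groups were separate in the other direction, at 0.17 (interval -0.031 to 0.36, adjusted p = 0.261). The ratio of POLRMT to TFAM counts was 3.06, 2.70 and 3.17 with siNTRK2 and 2.72, 2.63 and 2.31 with siBDNF, with p = 0.2 in the exact two-sided permutation test (0.4 when adjusted over the 4 comparisons).

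Another 64 nuclear genes of the same pathways were listed in 5 groups by function, and all 64 were tested. In senescent against proliferating cells 41 of them were called by edgeR, 8 higher and 33 lower, beside 58.1% of all tested genes (29.8% higher, 28.3% lower), with a median log2 fold change of -0.18 beside 0.025 over all genes. The coregulators and transcription factors around NRF1 and PGC-1 were lower in 13 of 18 and higher in 2, with a median of -0.35. NRIP1, a corepressor of nuclear receptors, was at 33.2, 33.4 and 28.1 CPM in proliferating and 19.06, 18.97 and 17.59 CPM in senescent libraries (-0.77, SE 0.075, adjusted p = 2.37e-09). CREB1, a cAMP-responsive factor, fell by 0.66 (adjusted p = 1.33e-08) and NFE2L2, a factor of the oxidative stress response, by 0.38 (adjusted p = 5.28e-08). The 2 that were higher, named after their values were seen, were ESRRA, an orphan receptor partnered by PGC-1α (0.29, adjusted p = 4.26e-04), and PERM1 (1.72, adjusted p = 3.91e-07).

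Of 15 genes for mitochondrial DNA replication and nucleotide supply, 8 fell and 2 rose, beside 28.3% lower and 29.8% higher over all tested genes. The ones that rose provide nucleotides outside S phase: RRM2B, a subunit of ribonucleotide reductase, was at 60.1, 54.7 and 47.1 CPM in proliferating and at 120, 124 and 127 CPM in senescent libraries (1.19, SE 0.061, adjusted p = 1.39e-14 from edgeR), and TK2, the mitochondrial thymidine kinase, rose by 0.64 (adjusted p = 1.78e-10). TOP1MT, the mitochondrial topoisomerase I, fell by 0.81 (adjusted p = 2.97e-08). Of 13 genes for mitochondrial mRNA stability and decay, 6 fell and 1 rose, beside the same shares of all genes. PNPT1, an exoribonuclease of the matrix, was at 26.9, 24.7 and 22.03 CPM in proliferating and at 12.9, 14.4 and 13.5 CPM in senescent libraries (-0.86, adjusted p = 4.20e-10 from edgeR), and the RNA-binding FASTKD2 and FASTKD3 fell by 0.60 and 0.99 (adjusted p = 1.46e-08 and 2.92e-06).

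Of 11 genes for mitochondrial transcription and RNA processing, 4 fell and 1 rose, beside 28.3% lower and 29.8% higher over all tested genes. MTERF3, a repressor of mitochondrial transcription, and MTERF2 fell by 0.50 and 0.43 (adjusted p = 0.00175 and 0.0135 from edgeR), and ELAC2, which trims the 3′ ends of tRNA precursors, rose by 0.26 (adjusted p = 1.05e-04). Of 7 genes for proteases and turnover, 2 fell and 2 rose, close to those shares of all genes. LONP1, the matrix protease for which TFAM is a substrate, fell by 0.39 (adjusted p = 1.10e-06) and ATAD3B by 0.36 (adjusted p = 5.09e-05). PINK1, the kinase that marks damaged mitochondria, was at 89.4, 88.3 and 97.2 CPM in proliferating and at 171, 159 and 170 CPM in senescent libraries (0.86, SE 0.049, adjusted p = 8.39e-14 from edgeR).

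**Figure D4:**
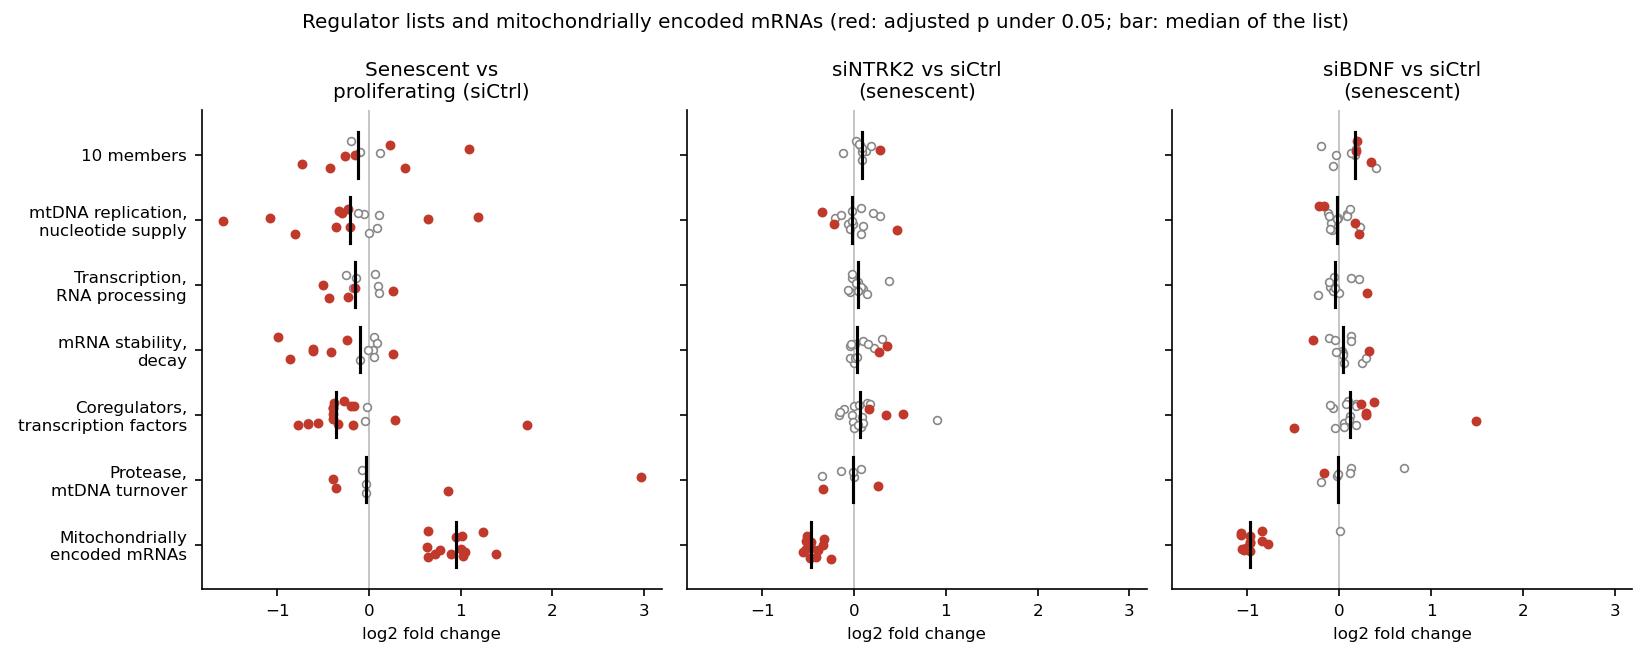
Log2 fold changes of the 10 genes, of the 64 other nuclear genes by list and of the 13 mitochondrially encoded mRNAs in the comparisons of senescent with proliferating cells and of siNTRK2 and siBDNF with siCtrl; each point is 1 gene, filled red where its adjusted p from edgeR was under 0.05, and the line in each row is the median. In senescent against proliferating cells the nuclear lists have medians from -0.35 to -0.027 and the mitochondrially encoded mRNAs one of 0.95.

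With siNTRK2, 10 of the 64 were called, 7 higher and 3 lower, beside 21.1% of all genes. NCOR1, a corepressor of nuclear receptors, was at 102, 105 and 102 CPM against 68.6, 78.1 and 66.6 CPM with siCtrl (0.54, SE 0.056, adjusted p = 1.32e-07 from edgeR). PPRC1, the coactivator related to PGC-1α, rose by 0.35 (adjusted p = 3.20e-05), SP1 by 0.16 (adjusted p = 0.0268), FASTKD2 by 0.36 (adjusted p = 2.16e-04), PNPT1 by 0.27 (adjusted p = 0.0120) and ATAD3B by 0.26 (adjusted p = 0.00713). PINK1 fell by 0.34 (adjusted p = 1.48e-05), TK2 by 0.35 (adjusted p = 3.35e-05) and MPV17, an inner membrane protein needed to keep mitochondrial DNA, by 0.21 (adjusted p = 0.0135). No gene of the transcription and RNA processing list was called in this comparison.

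With siBDNF, 14 of the 64 were called, 9 higher and 5 lower, a share close to the 20.5% of all tested genes. NCOR1 was higher here too, at 91.9, 96.6 and 88.2 CPM (0.37, adjusted p = 2.65e-05 from edgeR), as was FASTKD2 (0.32, adjusted p = 8.68e-04). PPARA, a receptor for fatty acids, rose by 0.29 (adjusted p = 0.00168), TRMT10C, a subunit of mitochondrial RNase P, by 0.30 (adjusted p = 0.0122), and MGME1, an exonuclease of mitochondrial DNA, by 0.21 (adjusted p = 0.0302). PPARG, the receptor for which PGC-1 was named, was at 22.5, 25.1 and 24.5 CPM against 33.2, 32.4 and 36.0 CPM (-0.49, SE 0.063, adjusted p = 4.16e-06). DGUOK, a nucleoside kinase, fell by 0.22 (adjusted p = 0.00833), SSBP1, which covers single-stranded mitochondrial DNA, by 0.17 (adjusted p = 0.0455), and LONP1 by 0.16 (adjusted p = 0.0329). With library totals as the only scaling 18 were called, 15 higher and 3 lower.

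Directly compared, 12 of the 64 differed between the silencings, 8 higher and 4 lower with siNTRK2, beside 16.7% of all tested genes (8.84% higher, 7.86% lower). PPARG was higher with siNTRK2 than with siBDNF by 0.48 (adjusted p = 5.32e-06 from edgeR), PRIMPOL by 0.56 (adjusted p = 0.0190), MTERF2 by 0.43 (adjusted p = 0.0466), PPRC1 by 0.29 (adjusted p = 3.03e-04), SLIRP by 0.24 (adjusted p = 0.0246), PNPT1 by 0.23 (adjusted p = 0.0395) and LONP1 by 0.16 (adjusted p = 0.0487). PINK1 was lower by -0.32 (adjusted p = 3.12e-05), TK2 by -0.24 (adjusted p = 0.00244), RRM2B by -0.21 (adjusted p = 0.0148) and PPARA by -0.19 (adjusted p = 0.0368). The split turned to 3 higher and 10 lower with library totals as the only scaling, and to 6 and 8 with at least 10 counts in every library.

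The mRNAs made from the mitochondrial genome, which the proteins of the 10 genes act on, were counted in the same libraries. These were made from polyadenylated RNA, and how well this selection captured each mitochondrial mRNA was not tested. In senescent against proliferating cells all 13 rose, by 0.63 to 1.38 on the log2 scale with a median of 0.95. All 13 were called higher, beside 29.8% of all tested genes. The largest rise was in the counts of MT-ND6, at 173, 206 and 200 CPM against 521, 503 and 483 CPM (adjusted p = 1.42e-14 from edgeR). It is the only one of the 13 transcribed from the light strand. Whether counting used the strand is not given, so its counts cannot be assigned to that strand, or to MT-ND6 mRNA, with certainty. The share of counts in the 13 mRNAs was 1.35% to 1.70% in proliferating and 2.66% to 2.95% in siCtrl-transfected senescent libraries, while TFAM mRNA was lower and POLRMT mRNA higher. With siNTRK2 the share was 2.01% to 2.24% and all 13 were called lower, beside 10.0% of all tested genes. With siBDNF it was 1.23% to 1.79% and 12 of 13 were called lower, beside 10.2% of all tested genes. The exception was MT-ND3, at 367, 324 and 370 CPM against 364, 341 and 353 CPM. TFAM, POLG and LRPPRC mRNAs were thus higher with siBDNF in the libraries with the smaller mitochondrial share. No relation between these levels was tested.

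The tested genes most like TFAM in pattern were SPIN1, CFAP97 and RPS6KA3, whose centred log2 CPM differed from that of TFAM by a mean of 0.065, 0.069 and 0.071 over the 12 libraries. TFAM itself spanned 0.72 on that scale between its lowest and highest group mean. Those most like PPARGC1A, which spanned 1.51, were ACACB, ITGA6-AS1 and AL121897.1, with mean differences of 0.17, 0.20 and 0.20. These are descriptions, and the lists come from the same 12 libraries that define the patterns.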

How the data were processed

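Strand-specific libraries were prepared by the authors from polyadenylated RNA, sequenced in pairs, trimmed with Cutadapt, aligned to hg19 with STAR 2.4.0j and counted per Ensembl gene with featureCounts 1.6.4. The deposited values are these raw counts, 1 file per library and not normalized; whether featureCounts used the strand is not given in the sources used here. A table of gene names paired 55538 of 57773 identifiers with a symbol.

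The tests were made with edgeR 4.0.16 (R 4.3.3): TMM scaling, filterByExpr, a quasi-likelihood fit with 1 term per group on all 12 libraries and Benjamini-Hochberg adjustment over 21518 genes. SE is the absolute log2 fold change over the root of the F statistic. Depth was 31567912 to 72328151 counts. Transcript lengths and gene positions are from GENCODE v44 mapped to GRCh37, newer models than those counted. Libraries of a group differed by more than counting error (chi-square per gene 3.92 to 13.6), so none was treated as a duplicate.

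Alternatives were DESeq2 1.42.0 (Wald test, and its size factors in edgeR), scaling by library totals, testing without a filter, requiring 10 counts in every library, fitting the 2 groups alone, the cutoff of an absolute log2 fold change over 1 that the study used, the replicate number as a block, and leaving out each library. The fit was tested on simulated data.

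The 10 genes and the lists were chosen with earlier results of these data known. All 10 are named. From the other lists the text names up to 3 genes per comparison with the smallest adjusted p among called genes whose groups did not overlap, partners of the 10, genes that overlap them, and, for the pair of genes with the widest range of group means, the 3 genes most alike. Exceptions are marked in the text. The values of 1 listed gene are not reported here.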

Additional observations from a re-analysis of the deposited data

Results flagged for a closer look

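TFAM mRNA responded differently to the 2 silencings: the log2 difference between siNTRK2 and siBDNF, tested directly with edgeR's quasi-likelihood test, was -0.32 (SE 0.090, adjusted p = 0.0139), with all 3 siNTRK2 libraries below all 3 siBDNF libraries.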

How the results depend on the processing

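With the cutoff of an absolute log2 fold change over 1 added, the called genes among the 10 were 1 of 7 in senescent against proliferating cells and 0 of 1, 0 of 3 and 0 of 1 with siNTRK2, with siBDNF and between them, and among the 64 others 5 of 41, 0 of 10, 1 of 14 and 0 of 12. With libraries left out in turn, the called genes among the 10 ranged from 6 to 8, 1 to 1, 1 to 3 and 0 to 1, and among the 64 from 39 to 43, 7 to 12, 7 to 16 and 5 to 9. The siBDNF count of 1 came without siBDNF replicate 2 or 3, and the count of 0 between the silencings without siNTRK2 replicate 3 or siBDNF replicate 3. Among the 64, 7 were called with siBDNF without siBDNF replicate 2 or 3, 8 without siCtrl replicate 3, and 9 without siCtrl replicate 1 or siBDNF replicate 1. Between the silencings 5 were called without siBDNF replicate 1 or 3, and 7 without siNTRK2 replicate 2. The log2 fold change of NRF1 with siBDNF was 0.020 with library totals only. Uncalled estimates near 0 that changed sign when 1 library was left out were PPARGC1B in senescence (-0.015 to 0.22), TFAM (-0.0027 to 0.080), TWNK (-0.034 to 0.11) and PPARGC1B (-0.075 to 0.23) with siNTRK2, NRF1 with siBDNF (-0.088 to 0.019), and TFB1M (-0.090 to 0.036) and PPARGC1B (-0.25 to 0.0045) between the silencings. The cause of these changes was not tested. DESeq2's Wald test and its size factors in edgeR gave the same counts of called genes among the 10 in all 4 comparisons. With library totals only, the split of all calls into higher and lower moved from 2227 and 2185 to 3139 and 1388 with siBDNF and from 1903 and 1692 to 1349 and 2227 between the silencings, and the median of all genes shifted by at most 0.057. Deviations from the group means were not shared by libraries of the same replicate number (r from -0.11 to 0.11 over 18 pairs, and 4 of 12 libraries were closest to their own number), so the numbers were not taken to pair the samples. With the replicate block, 7, 1, 4 and 1 of the 10 and 42, 9, 14 and 12 of the 64 were called. Counting error limits PPARGC1A and PPARGC1B most, at 10 to 88 counts per library.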
